A study of Mus musculus with 6 samples.

Results

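The miR-15/miR-16 seed family, with miR-195 and miR-497, was examined in small RNA sequencing libraries from adult mouse brain that either carried or lacked ADAR2, the enzyme that deaminates adenosine to inosine in double-stranded RNA. Members were the rows of the deposited read tables named miR-15a, miR-15b, miR-16, miR-195, miR-322 and miR-497, which are guide strands, and miR-497*, the opposite arm of the Mir497 hairpin. These are 7 of 1055 mature miRNA rows, and all 7 had reads in each of the 6 libraries. Whole brains came from sibling female mice in a 129SV background at the age of 5.5 months, and each brain gave 1 library. The wild-type group held 3 mice (Adar2+/+, called AdarB1+/+ in the crosses) and the Adar2-/- group held 3 mice without functional Adar2. Both groups were homozygous for the pre-edited Gria2 allele (Gria2 R/R), which rescues the early lethality of Adar2-/- mice, so the comparison is between ADAR2 genotypes within that rescue background. Adar2 is missing from the whole animal, and a whole brain mixes neurons, glia and vessels. In such bulk tissue, fewer cells of a type and less RNA per cell cannot be told apart.

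Total mapped miRNA reads ran from 12449633 to 23935544 per library. Abundance is given in RPM, reads per 1000000 reads mapped to miRNAs in that library, a relative scale on which a change of the total miRNA content cannot be seen. The brain-enriched miR-9 ranked 2 in all 6 libraries, and miR-124, a miRNA of neurons, ran from 7203 to 25453 RPM, whereas the liver miRNA miR-122 stayed between 3.95 and 7.23 RPM. Not every miRNA of another tissue was low, as miR-1, a miRNA of muscle, ran from 970 to 1755 RPM. The neuronal miR-128 ran from 386 to 1319 RPM. Adar2 mRNA was not analysed here, and the genotypes were taken from the labels without a check. Each brain had its own sequencing lane according to the methods of the study, so an effect of the lane and a difference between brains cannot be told apart. Values refer to replicates 1 to 3 of each genotype in that order throughout.

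A miRNA finds its targets mainly through its seed, bases 2 to 8 counted from the 5′ end, and miRNAs that share a seed can bind overlapping sets of mRNAs. The miR-15/16 family is best known for restraining the cell cycle and for lowering anti-apoptotic proteins such as BCL2, and loss of the miR-15a/16-1 locus is a recurrent event in chronic lymphocytic leukaemia. The members are made from clustered hairpins, each cluster transcribed as 1 primary transcript that DROSHA and then DICER cut into a duplex of 2 arms. Usually 1 arm (the guide) is retained and the other (the star strand) is largely lost.

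The mature sequences below show what the family shares and where it differs. They are the entries of the RefSeq miRNA table (GRCm38.p6), which held all 7 members, written 5′ to 3′ with the seed in capitals.
miR-15a: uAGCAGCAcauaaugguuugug
miR-15b: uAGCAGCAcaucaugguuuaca
miR-16: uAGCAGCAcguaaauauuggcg
miR-195: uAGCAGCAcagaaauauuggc
miR-322: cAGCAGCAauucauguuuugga
miR-497: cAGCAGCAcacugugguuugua
miR-497*: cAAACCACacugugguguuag

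The 6 guides carried the identical seed AGCAGCA, with 3 adenosines each. Of 1679 mature entries in RefSeq, 10 held this seed, and the other 4 (miR-195b, miR-6342, miR-6353 and miR-6419) were not analysed here. miR-497* had the seed AAACCAC, which no other entry of the table shared, so it is a partner of the family by its hairpin and not by its seed. miR-503, the neighbour of miR-322, had AGCAGCG instead and is shown for the base at the end of its seed.
miR-503: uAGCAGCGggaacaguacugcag
Outside the seed the guides diverged. Compared from the 5′ end, miR-16 and miR-195 differed at 2 of 21 bases, G10A and U11G (the base of miR-16, the position counted from 1 at the 5′ end, and the base of miR-195). miR-15a and miR-15b differed at 4 of 22 bases, and the remaining pairs of guides at 5 to 11 bases. The authors allowed about 2 mismatches when they mapped reads, so counts on each member can also include reads with A-to-G changes, and miR-16 and miR-195 lie within that allowance of each other. What this contributed to the counts was not tested.

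On NCBIM37, which corresponds to the mm9 build named in the labels, the hairpins fell into 4 clusters. Mir15a and Mir16-1 lay on the minus strand of chromosome 14 in an intron of Dleu2, a long non-coding RNA. The 2 arms of Mir15a spanned 62250875 to 62250933 and Mir16-1 spanned 62250717 to 62250809, where the annotation lists miRNA genes as AC154660.2 and AC154660.1. Mir15b (68813694 to 68813757) and Mir16-2 (68813824 to 68813918) lay on the plus strand of chromosome 3 in an intron of Smc4, which encodes a condensin subunit. Mir497 (70048219 to 70048302) and Mir195 (70048544 to 70048637) lay on the plus strand of chromosome 11 with 241 bases between them, and Mir322 (50407432 to 50407526) on the minus strand of chromosome X with 200 bases to Mir503. For the chromosome 11 and X hairpins no overlapping gene other than the miRNA genes was annotated. Mir16-1 and Mir16-2 give the same mature miR-16, so reads on miR-16 are the sum of both loci.

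To place the members in the test across the whole table, counts were compared by edgeR's quasi-likelihood method. It covered 399 miRNAs, those counted at least 100 times in each library. All p-values called adjusted were corrected over the miRNAs of the fit by the Benjamini-Hochberg method, 0.05 was the threshold, and a log2 fold change above 0 means more reads in Adar2-/-. Of the 7 members 6 were tested, since miR-15b had 85 reads in wild-type replicate 1. None of the 6 passed the threshold, as did 0 of all 399 miRNAs (0%). At an unadjusted p under 0.05, miR-16 was higher and miR-497* lower, against 2.26% higher and 1% lower among all miRNAs tested (13 miRNAs in all). With a replicate block the unadjusted p of miR-16 was 0.114 and that of miR-497* was 0.00670 (edgeR). DESeq2 called 1 miRNA (0.251%), which was miR-497*. The median log2 fold change was 0.09 for the 6 members and 0.0023 for all 399. miR-16 had the highest log2 fold change of the 399 (1.32), 3 miRNAs lay above miR-195 (1.10), and 1 miRNA lay below miR-497* (−1.45).

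**Figure D1:**
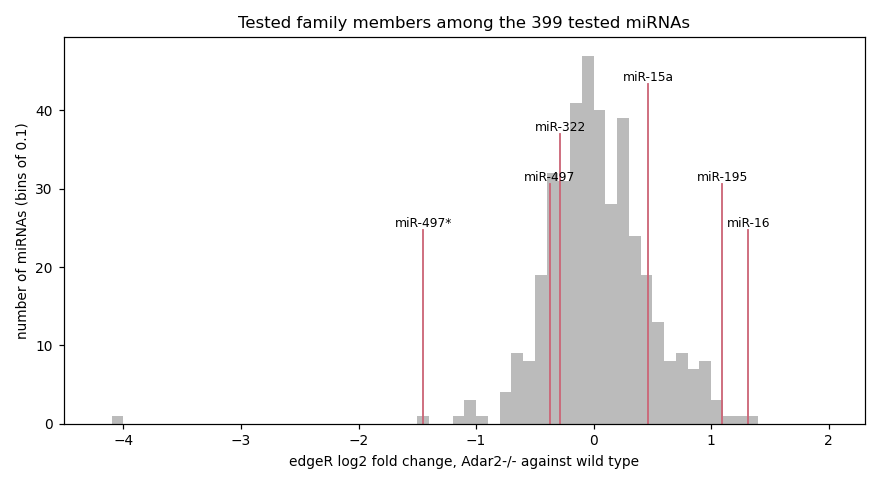
Distribution of the edgeR log2 fold change (x axis, Adar2-/- against wild type) over the 399 tested miRNAs (y axis, number of miRNAs per bin of 0.1), with vertical lines at the 6 tested members. miR-16 (1.32) and miR-195 (1.10) lie at the upper end, miR-497* (−1.45) near the lower end, and miR-322 (−0.28), miR-497 (−0.37) and miR-15a (0.46) within the bulk.

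Within the 15a/16 and 15b/16 clusters, the mean level of each guide was higher in Adar2-/- brains, but the mean came from 2 of the 3 mutant libraries. miR-16, the guide with the highest mean level of the family in both genotypes, stood at 1976, 2157 and 1743 RPM in wild type and at 1445, 4879 and 8322 RPM in Adar2-/-. Adar2-/- replicate 1 lay below every wild-type library and replicates 2 and 3 above, so the groups overlapped. The means were 1959 ± 207 RPM (SD, n = 3) and 4882 ± 3438 RPM (SD, n = 3), and the spread among mutant brains exceeded the difference between the means. The log2 fold change of miR-16 was 1.32 (standard error 0.530, unadjusted p = 0.0321, adjusted p = 0.988 by edgeR).

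miR-15a, which is co-transcribed with miR-16 from the Dleu2 intron, stood at 234, 212 and 222 RPM in wild type and at 196, 309 and 415 RPM in Adar2-/-. As for miR-16, Adar2-/- replicate 1 was the lowest and Adar2-/- replicate 3 the highest of the 6 libraries. Its log2 fold change was 0.46 with a standard error of 0.347 (edgeR adjusted p = 0.988). The wild-type libraries of miR-15a differed little (223 ± 10.9 RPM, SD, n = 3), whereas the mutant ones spread over 307 ± 109 RPM (SD, n = 3).

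miR-15b, the paralogous guide within Smc4, was the least abundant member. It stood at 6.83, 4.39 and 7.92 RPM in wild type and at 5.58, 15.4 and 24.1 RPM in Adar2-/-, from 85, 100 and 186 reads and from 104, 363 and 578 reads. Here Adar2-/- replicate 1 fell within the wild-type range and the other two lay above it. In the fit with a minimum of 10 reads in every library (608 miRNAs, of which 0% passed the threshold), its log2 fold change was 1.24 with a standard error of 0.509 (unadjusted p = 0.0328, adjusted p = 0.982). At this minimum 3.29% of miRNAs had an unadjusted p under 0.05, made up of 2.47% higher and 0.822% lower.

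In the miR-497/miR-195 cluster the 2 guides overlapped between genotypes and miR-497* did not. miR-195, a guide known mainly as a brake on cyclins and their kinases, stood at 625, 652 and 590.2 RPM in wild type, a spread of only 30.9 RPM (SD, n = 3). In Adar2-/- it stood at 286, 1622 and 2081 RPM, below the wild-type range in replicate 1 and above it in replicates 2 and 3. Its log2 fold change was 1.10 with a standard error of 0.581 (edgeR adjusted p = 0.988). miR-497, the other guide of this transcript, stood at 109, 48.2 and 56.8 RPM in wild type and at 23.4, 61.5 and 80.1 RPM in Adar2-/-. Here wild-type replicate 1 was the highest and Adar2-/- replicate 1 the lowest of the 6 libraries, with the other 4 between them. Its log2 fold change of −0.37 (adjusted p = 0.988 by edgeR) turned to 0.07 without wild-type replicate 1.

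miR-497* was the only tested member whose genotypes did not overlap. It stood at 132, 90.7 and 119.5 RPM in wild type and at 28.1, 49.1 and 48.3 RPM in Adar2-/-, with every mutant library below every wild-type library. Among the 399 miRNAs, 3.01% were separated with Adar2-/- lower and 2.76% with Adar2-/- higher. It was also the only member with 1 direction in all 3 replicate numbers, as were 7.02% of the miRNAs downward and 9.02% upward. With a difference of at least 1.3-fold in mean RPM as well, which miR-497* met, these shares were 4.26% and 5.51%. Its log2 fold change was −1.45 (standard error 0.351, unadjusted p = 0.00202, adjusted p = 0.805 by edgeR), and DESeq2 gave −1.52 (adjusted p = 7.69e-07). Over the 19 alternative fits its adjusted p ran from 7.69e-07 to 0.998 and was under 0.05 in 2 of them. The means were 114 ± 21.3 RPM in wild type and 41.8 ± 11.9 RPM in Adar2-/- (SD, n = 3 each), a difference larger than the spread within either genotype.

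miR-322, the mouse counterpart of human miR-424 from the X-linked cluster, stood at 1599, 589 and 1218 RPM in wild type and at 539, 1289 and 969.9 RPM in Adar2-/-. The groups overlapped widely, and neither genotype was consistently higher. Its log2 fold change was −0.28 with a standard error of 0.451 (edgeR adjusted p = 0.989), and it turned to 0.05 without wild-type replicate 1.

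**Figure D2:**
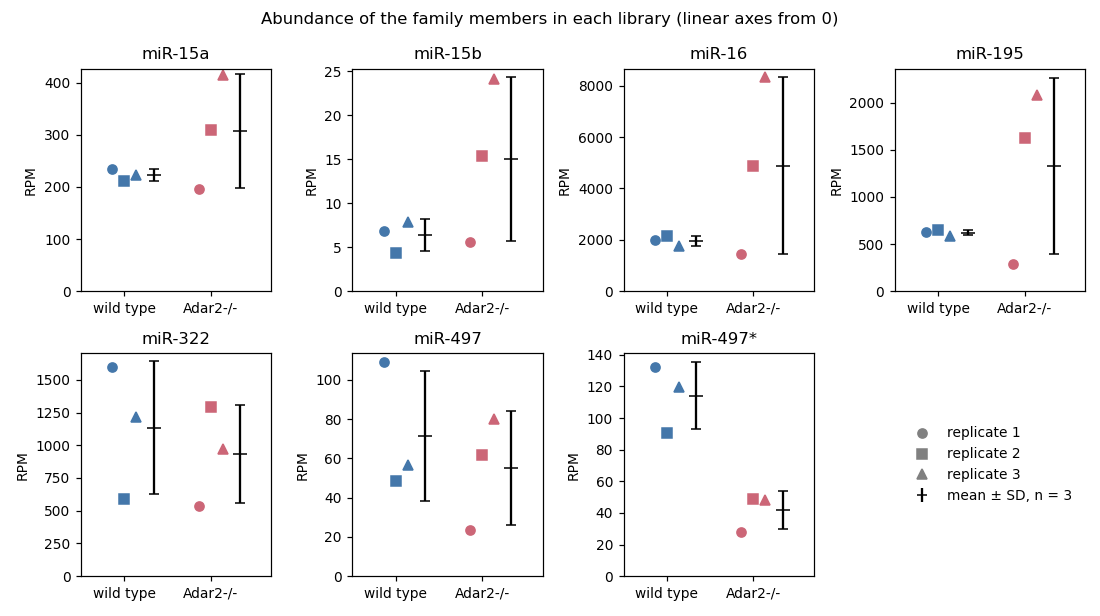
Abundance of each member (y axis, RPM, linear from 0) in the 3 wild-type (blue) and 3 Adar2-/- (red) libraries, with the replicate number as marker shape and mean ± SD (n = 3) in black. For miR-497* every red point (28.1 to 49.1 RPM) lies below every blue point (90.7 to 132 RPM), whereas for miR-15a, miR-15b, miR-16 and miR-195 the red points of replicates 2 and 3 lie above the blue points and that of replicate 1 does not.

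Since replicate 1 stood apart for most members, Adar2-/- was also set against wild type within each replicate number. The numbers were not taken as pairs, so these values depend on which brains share a number. In replicate 1 all 7 members were lower in Adar2-/-, as were 66.7% of the 399 miRNAs, whose median log2 ratio was −0.31. In replicate 2, 6 of the 7 members were higher (68.9% of all miRNAs, median 0.32), and in replicate 3, 5 of the 7 were higher (57.4%, median 0.16). Thus 5 members (miR-15a, miR-15b, miR-16, miR-195 and miR-497) had a ratio of Adar2-/- to wild type under 1 in replicate 1 and above 1 in the other two, a pattern shown by 35.3% of the 399 miRNAs. The part of the lane or of the individual brains in this pattern was not tested.

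The size of these differences varied among members. For miR-16 the ratio of Adar2-/- to wild type was 0.731, 2.26 and 4.77, and for miR-195 it was 0.458, 2.49 and 3.53. By this ratio miR-16 lay at percentiles 94.2 and 99.5 of the 399 miRNAs in replicates 2 and 3, and miR-195 at percentiles 96.0 and 97.0. miR-15a had smaller ratios of 0.840, 1.46 and 1.87, whereas miR-15b reached 0.817, 3.51 and 3.05. The ratios of miR-322 were 0.337, 2.19 and 0.796. miR-497* had 0.212, 0.541 and 0.404, at percentiles 0.501, 3.26 and 2.51.

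**Figure D3:**
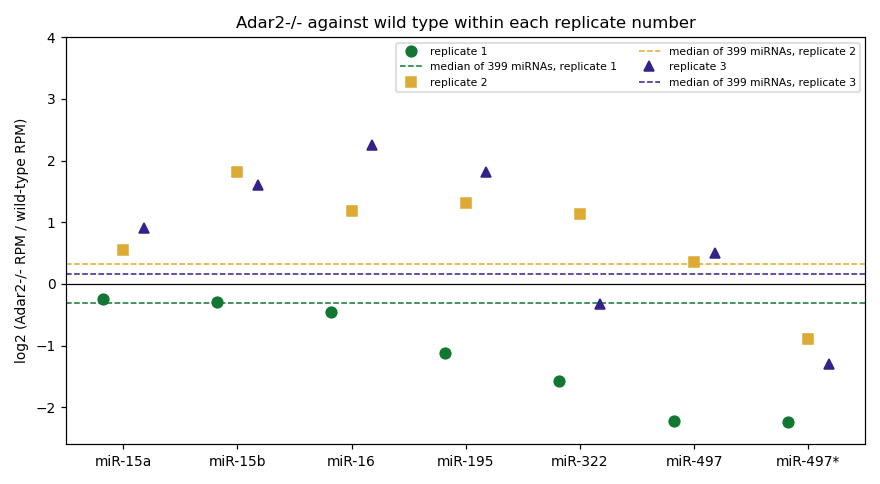
log2 ratio of Adar2-/- to wild-type RPM (y axis) for each member (x axis) within replicates 1, 2 and 3 (marker shapes), with dashed lines at the median of the 399 tested miRNAs in each replicate (−0.31, 0.32 and 0.16). All 3 points lie below 0 for miR-497* alone, whereas replicate 1 lies below 0 for all 7 members.

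When replicate 1 of both genotypes was left out, miR-16 (log2 fold change 1.76) and miR-195 (1.58) passed the threshold with an adjusted p of 0.0472 each (edgeR), among 18 calls, each of them higher (4.51% of 399). With the minimum of 100 reads applied to the remaining 4 libraries only, 437 miRNAs were tested and 8.47% passed, 8.24% as higher and 0.229% as lower (a setting added with the data in view). miR-16 and miR-195 (both adjusted p = 0.0226) and miR-15b (log2 fold change 1.68, adjusted p = 0.0273) were then among the higher ones, and miR-497* (−1.11, adjusted p = 0.0437) was the 1 lower one. Without Adar2-/- replicate 1 alone, miR-16 and miR-195 kept similar log2 fold changes of 1.75 and 1.57 but an adjusted p of 0.141 each. Without Adar2-/- replicate 3 alone, the log2 fold changes were 0.69 for miR-16, 0.62 for miR-195 and 0.18 for miR-15a. Over the alternatives the adjusted p of miR-16 and of miR-195 ran from 0.0226 to 0.998.

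To compare members without any library size, the log2 ratio of reads between 2 members was taken within each library, and the genotypes were compared by exact permutation of the libraries, two-sided. With 3 libraries against 3 the smallest possible p is 0.1. There were 7 such ratios, and the p-values adjusted over them were 0.35 or higher. Pairs outside the family were not compared in this way, so the share of arm or cluster pairs that separate over the whole table is not known. Where the edgeR fit held both arms of a hairpin, the star strand mostly had the lower log2 fold change, as for miR-9* and miR-30a*. Fewer star strands had the higher one, as did miR-140* and miR-411*. A star strand lower than its guide was thus not particular to Mir497.

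Within the miR-497/miR-195 cluster miR-497* was less frequent relative to miR-195 in each Adar2-/- library than in any wild-type library. On the log2 scale, reads on miR-497* over reads on miR-195 stood at −2.24, −2.84 and −2.30 in wild type and −3.35, −5.05 and −5.43 in Adar2-/-. The difference was −2.15 (means −2.46 ± 0.33 and −4.61 ± 1.11, SD, n = 3 each), a ratio 0.226 times that of wild type (two-sided exact permutation test, p = 0.1, adjusted over the 7 ratios p = 0.35). Within replicate numbers it was −1.11, −2.20 and −3.13. The direction was thus the same in replicate 1, in which both miRNAs were lower in Adar2-/-.

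The same cluster was compared for its guides and for the arms of Mir497. The log2 ratio of miR-195 to miR-497 was 2.52, 3.76 and 3.38 in wild type and 3.61, 4.72 and 4.70 in Adar2-/-. The groups overlapped, since Adar2-/- replicate 1 lay below wild-type replicate 2. Within the 3 replicate numbers, which were not taken as pairs, Adar2-/- exceeded wild type by 1.10, 0.96 and 1.32. On average this came to 1.13 (two-sided exact permutation test, p = 0.2, adjusted p = 0.42). The arm ratio of miR-497* to miR-497 differed by −1.02 (two-sided exact permutation test, p = 0.1, adjusted p = 0.35), with within-replicate differences of −0.01, −1.24 and −1.80. Against wild-type replicate 1, both arms were thus lower in Adar2-/- replicate 1 by nearly the same factor. That wild-type library had the lowest log2 arm ratio of its group (0.28, against 0.91 and 1.07), and Adar2-/- replicate 1 stood at 0.27. Within replicates 2 and 3 only the star strand was lower.

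Ratios within and between the miR-16 clusters differed by less. The log2 ratio of miR-15a to miR-16 was −3.08, −3.35 and −2.97 in wild type and −2.88, −3.98 and −4.33 in Adar2-/- (difference −0.60, two-sided exact permutation test, p = 0.4, adjusted p = 0.467). That of miR-15b to miR-16 was −8.18, −8.94 and −7.78 in wild type and −8.02, −8.31 and −8.43 in Adar2-/-, a difference of 0.05 (same exact test, p = 1). miR-15a was 35.9 times as frequent as miR-15b in wild type and 23.0 times in Adar2-/- (geometric means, log2 difference −0.64, same exact test, p = 0.3). The log2 ratio of miR-16 to miR-195, guides of different clusters, was 1.66, 1.73 and 1.56 in wild type and 2.34, 1.59 and 2.00 in Adar2-/-. Adar2-/- exceeded wild type by 0.33 on average (same exact test, p = 0.3, adjusted p = 0.42). Between the lowest and the highest library the RPM of miR-16 differed 5.76-fold and that of miR-195 7.27-fold.

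**Figure D4:**
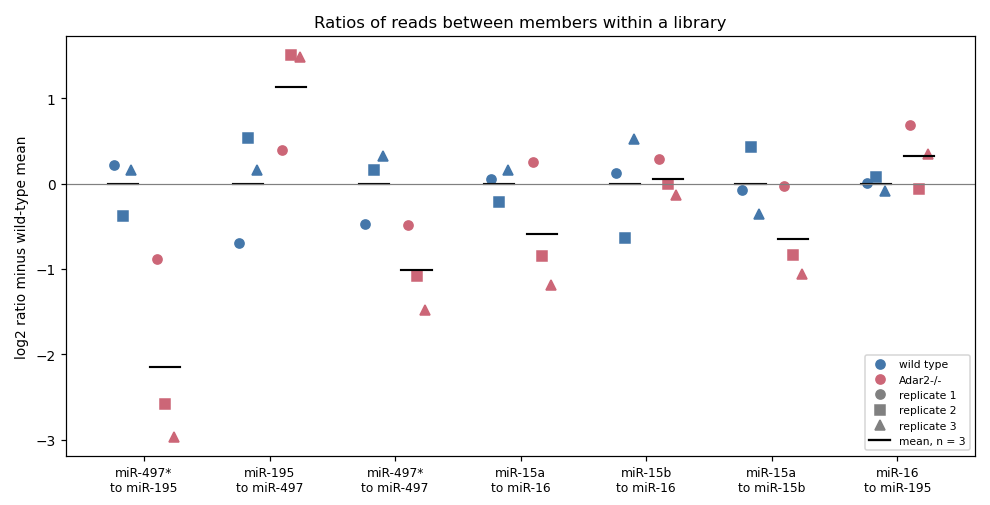
log2 ratio of reads between 2 members within a library, drawn relative to the wild-type mean of that ratio (y axis), for 7 pairs (x axis), with wild type in blue, Adar2-/- in red, the replicate number as marker shape and the mean of 3 libraries as a black line. The genotypes are separated for miR-497* to miR-195 (difference −2.15) and for miR-497* to miR-497 (difference −1.02) and overlap for the other 5 pairs. Pairs outside the family were not compared.

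Read together as 1 seed, the 6 guides made up 0.455%, 0.366% and 0.384% of mapped miRNA reads in wild type and 0.250%, 0.818% and 1.19% in Adar2-/-. Summed levels were 4017 ± 471 RPM (SD, n = 3) in wild type and 7521 ± 4732 RPM (SD, n = 3) in Adar2-/-, with replicate 1 of the mutants below and replicates 2 and 3 above all wild-type libraries. Reads on miR-16 were the largest part in every library, with 43.4%, 58.9% and 45.4% in wild type and 57.9%, 59.7% and 70.0% in Adar2-/-. miR-322 supplied 35.1%, 16.1% and 31.7% in wild type and 21.6%, 15.8% and 8.16% in Adar2-/-, and miR-195 supplied more than miR-322 in wild-type replicate 2 and in Adar2-/- replicates 2 and 3. The 95% Wilson intervals of these shares lay within 0.449 percentage points of the value and cover counting error only, as reads are not independent molecules.

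miR-195 supplied 15.6% ± 2.04 of the reads on the 6 guides in wild type and 16.3% ± 4.32 in Adar2-/- (SD, n = 3 each), and miR-15a 5.57% ± 0.379 and 5.04% ± 2.45. miR-497 supplied 2.40%, 1.32% and 1.48% in wild type and 0.937%, 0.752% and 0.674% in Adar2-/-, with every mutant library below every wild-type library. The shares of the other guides overlapped between genotypes, and no such shares were taken outside the family. Each value is a share of the summed reads of the 6 guides. The RPM of miR-497 itself was 1.28 and 1.41 times that of wild type in replicates 2 and 3. According to the study, editing within the seed of miR-497 is high in wild type and nearly absent in Adar2-/-. Reads counted on miR-497 thus need not carry the seed AGCAGCA, less so in wild type, and the separation need not hold for reads with that seed. How many carried it was not analysed here. The share of miR-15b ran from 0.120% to 0.223% over all libraries. Ligation efficiency differs between small RNA sequences, so shares of reads need not be shares of molecules.

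**Figure D5:**
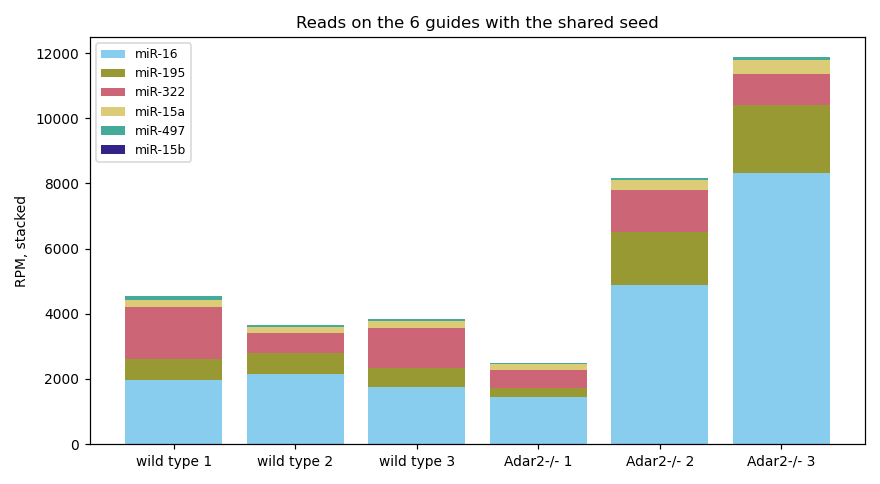
RPM of the 6 guides with the seed AGCAGCA (y axis, stacked) in each library (x axis, 3 wild-type and 3 Adar2-/-). miR-16 forms the largest block in each bar, and the bars of Adar2-/- replicates 2 and 3 (0.818% and 1.19% of reads) stand above those of wild type (0.366% to 0.455%) while that of Adar2-/- replicate 1 (0.250%) stands below.

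The opposite arms of the family hairpins were next examined, since an arm shared by no other locus reports on its own hairpin. Except for Mir497, star strands were scarce. miR-15a* took 0.219% to 0.581% of the reads on both arms of Mir15a, miR-322* 0.0769% to 0.176% of those of Mir322 and miR-195* 0.206% to 1.04% of those of Mir195 over the 6 libraries. The share of miR-15b* was larger, from 4.78% to 26.8%, at 15 to 38 reads. In contrast, miR-497* took 54.8%, 65.3% and 67.8% of the reads on Mir497 in wild type and 54.6%, 44.4% and 37.6% in Adar2-/-, so that it outnumbered the annotated guide in each wild-type library and in Adar2-/- replicate 1.

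The star strands of miR-16 tell its loci apart. The strand of Mir16-1, miR-16-1*, had 58, 48 and 37 reads in wild type and 51, 47 and 56 in Adar2-/-, and that of Mir16-2, miR-16-2*, had 2, 2 and 6 and then 8, 5 and 5 reads. miR-16-1* thus made up 92.9% ± 5.95 of the star reads in wild type and 89.5% ± 2.78 in Adar2-/- (SD, n = 3 each). These shares rest on 43 to 61 reads per library, with 95% Wilson intervals from 72.7% to 99.1%. They describe star reads, and whether guide reads of miR-16 divide the same way could not be measured.

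None of the 6 star rows other than miR-497* had 100 reads in every library. At the minimum of 10 reads 5 of the 6 were tested, and neither the adjusted nor the unadjusted p of any was under 0.05 (edgeR), with 2 higher and 3 lower in Adar2-/- and a median log2 fold change of −0.16. miR-195* stood at 6.43, 5.36 and 5.07 RPM in wild type and at 3.00, 5.77 and 4.30 RPM in Adar2-/-, a ratio of 0.467, 1.08 and 0.849 where miR-195 had 0.458, 2.49 and 3.53. miR-16-1* had ratios of 0.587, 0.946 and 1.48 where miR-16 had 0.731, 2.26 and 4.77. For these 2 star strands the ratio was smaller than that of the guide in replicates 2 and 3, whereas miR-322* (0.396, 2.58 and 1.83) exceeded miR-322 in all 3. The reads on miR-16-1* and miR-16-2* were 0.243%, 0.102% and 0.105% of the reads on miR-16 and its star strands in wild type and 0.218%, 0.0452% and 0.0306% in Adar2-/-.

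The Mir322 cluster holds miR-503, miR-351, miR-542, miR-450a and miR-450b beside miR-322, in 11 further rows. Only 2 of them, miR-542-3p and miR-450a, had 100 reads in every library. At the minimum of 10 reads 7 of the 11 were tested, of which 0 passed the threshold (edgeR), 4 were higher and 3 lower, and the median log2 fold change was 0.06. miR-503, which restrains the cell cycle together with miR-322, stood at 3.05, 2.46 and 2.22 RPM in wild type and at 4.67, 4.16 and 6.23 RPM in Adar2-/-. Each mutant library lay above each wild-type library, from 38 to 56 reads in wild type and 87 to 149 in Adar2-/-, and 2.8% of the 608 miRNAs were separated in this way. Its log2 fold change was 0.97 (standard error 0.356, edgeR unadjusted p = 0.0196, adjusted p = 0.982). miR-542-5p was separated the other way, as were 2.8% of the 608 miRNAs, with 2.09, 1.71 and 2.09 RPM in wild type and 1.02, 1.36 and 1.38 RPM in Adar2-/- from 19 to 49 reads (log2 fold change −0.64, edgeR adjusted p = 0.982). miR-322 itself overlapped between genotypes, and its star strand stood at 0.658 to 2.17 RPM in wild type and 0.858 to 1.71 RPM in Adar2-/-.

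Similarity of the profiles over the 6 libraries was described by Pearson's r of log2 RPM, over genotypes, brains and lanes together and without a test. miR-15a and miR-16 had r = 0.98, and miR-16 was the miRNA ranked 5 among the 398 others by similarity to miR-15a. miR-16 and miR-195, of different clusters, had r = 0.96. Within the miR-497/miR-195 cluster the values were lower, with r = 0.61 for miR-195 and miR-497 (miR-497 ranked 135 for miR-195), 0.65 for miR-497 and miR-497*, and −0.02 for miR-195 and miR-497*. miR-322 had r = 0.82 with miR-497 but −0.29 with its cluster neighbour miR-542-3p and −0.58 with miR-450a. The profiles most like that of miR-16 were those of miR-24, miR-410 and miR-15a (r = 0.99, 0.98 and 0.98), and those most like that of miR-497* were miR-99b*, miR-487b and miR-99b (r = 0.95, 0.93 and 0.93). All miRNAs of a library share its composition and depth.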

How the data were processed

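The authors deposited 3 tables of raw read counts, each with 1 wild-type and 1 Adar2-/- library, made by removing adaptors (Cutadapt), mapping reads of 19 to 25 nucleotide RNA to the mature miRNAs of miRBase release 16 (NextGenMap, about 2 mismatches), discarding reverse-strand hits and weighting reads with several equally good hits. The 12 blank lines were dropped. RNA editing was not analysed here.

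edgeR 4.0.16 (glmQLFit, glmQLFTest, R 4.3.3) was fitted to the counts of 399 miRNAs, each counted 100 times or more per library. The sum of miRNA reads served as library size, without scaling factors or a block. Alternatives were DESeq2 1.42.0, TMM factors, other library sizes and read minimums, a replicate block, and leaving out libraries. Ratios within libraries were tested by exact permutation of the libraries, two-sided (scipy 1.17.1). With 3 brains a group, p-values set a difference against the variation between these few libraries, in which brain and lane are mixed. The main edgeR fit and the DESeq2 fit were tried on simulated counts in which no library was made to deviate from its group. The exact permutation test was tried on small made-up examples. Hairpin or arm sequences (RefSeq) were matched to NCBIM37, and gene overlaps come from the GENCODE annotation on that build. Named were all members, the other arms of their hairpins, the rows of the Mir322 cluster, and the 3 miRNAs most like miR-16 and miR-497* in profile. Members and lists were chosen with earlier results of these data known. Python 3.11.15, pandas 2.3.3, numpy 2.4.6 and matplotlib 3.10.9 were used.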

Additional observations from a re-analysis of the deposited data

How the results depend on the processing

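With TMM factors, with library sizes that left out the 5 most abundant miRNAs, with a minimum of 10 reads or 1, and with a replicate block with or without TMM factors, 0 members and 0 miRNAs passed the threshold in edgeR. DESeq2 called 1 member and 1 miRNA in all. Each of the 6 fits without 1 library called 0 members and 0 miRNAs. Without the same replicate number in both genotypes, members called ran from 0 to 2 and miRNAs from 0 to 18, the upper values being those without replicate 1, where the reapplied minimum (chosen after the data were seen) gave 4 and 37. miR-16, miR-195 and miR-15a stayed positive and miR-497* negative (−1.72 to −1.11) in all 19 alternative fits that gave them. Leaving out libraries moved miR-322 between −0.90 and 0.32 (0.05 without wild-type replicate 1, 0.32 when replicate 1 of both genotypes was dropped) and miR-497 between −0.89 and 0.43 (0.07 and 0.43 in these fits). The log2 ratio of miR-15b to miR-16 (0.05) reversed to −0.27 without wild-type replicate 2, −0.07 without Adar2-/- replicate 1, −0.01 without replicate 1, −0.24 without replicate 2 and −0.081 as a ratio of mean RPM. It ran from −0.27 to 0.31 without 1 library and up to 0.40 without replicate 3 of both genotypes. The causes were not tested. The other 6 ratios kept their direction, but not their size. Without Adar2-/- replicate 1 the difference for miR-15a to miR-16 was −1.02 and that for miR-16 to miR-195 was 0.14. Without Adar2-/- replicate 3 miR-15a to miR-16 was −0.30, and without Adar2-/- replicate 2 miR-16 to miR-195 was 0.52. Leaving out 1 library, or 1 of each genotype, moved the difference for miR-497* to miR-195 between −2.78 and −1.66 and that for miR-497* to miR-497 between −1.52 and −0.63.

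Libraries with the same replicate number did not deviate together (r of the deviations from the group means −0.001, −0.08 and −0.01), so the numbers were not taken as pairs. With the replicate block miR-16 stood at 1.01, miR-195 at 0.72 and miR-497* at −1.47 (adjusted p = 0.983 each, edgeR), and the exact sign-flip test within replicate numbers gave p = 0.25, its smallest value, for miR-497* to miR-195, miR-497* to miR-497 and miR-195 to miR-497. No adjusted p crossed the threshold with the block, but the unadjusted p of miR-16 rose to 0.114 (0.0776 with TMM factors). Over the 19 alternatives it was under 0.05 in 10, and that of miR-497* in 19. Depth limits miR-15b and the star strands, several of which have under 100 reads.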
